A study of Mus musculus with 12 samples.

Results

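The genes described here are Wnt target and crypt stem cell genes of the mouse colon, namely Lgr5, Axin2, Ascl2, Cd44, Ephb2, Ephb3, Myc, Sox9 and Tcf7. They were found by gene symbol in the array annotation, whatever their values. The annotation used here names 7 of these 9 genes, with 12 of the 22626 probe sets tested and out of 12393 genes named in all. Ephb2 and Tcf7 are not analysed here. None of the 7 measured genes differed between any of the groups at an adjusted p under 0.05 in any of 7 comparisons.

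Wnt proteins bind Frizzled and LRP receptors at the cell surface and keep beta-catenin from being destroyed, so that it enters the nucleus and switches on genes together with TCF and LEF factors. In the intestine this signal is strongest at the base of the crypts, where it maintains the stem cells that renew the epithelium, and it fades towards the luminal surface. Lgr5 is a receptor for R-spondins, which strengthen the Wnt signal, and is the best known marker of the crypt base stem cell. Ascl2 is a transcription factor of the same cells. Axin2 is a scaffold of the complex that destroys beta-catenin and is itself switched on by the pathway, which makes it a common readout of Wnt activity. Ephb2 and Ephb3 are receptors that keep cells in their place along the crypt, Cd44 is a surface glycoprotein that binds hyaluronan, Myc drives growth and division, Sox9 is a transcription factor of the lower crypt, and Tcf7 is one of the TCF factors.

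RNA was measured on Affymetrix 430A arrays, on which a probe set is a group of short probes for 1 transcript. The RNA was that of epithelium scraped off the colon of male mice aged 6 to 8 weeks, and 3 mice were pooled for each array. There were 4 groups of 3 arrays. All mice spent 14 days on a soya-free powdered diet, and then 24 hours on that diet alone or with quercetin, a plant flavonol, at 6200 ppm (7 mg for each mouse). The groups were wild type C57BL/6 mice on control diet, wild type mice on quercetin, POR-null mice on control diet and POR-null mice on quercetin. POR, the cytochrome P450 reductase, passes electrons to the microsomal P450 enzymes. The labels give no promoter or Cre for the null line. From the literature it lacks the gene in hepatocytes, so that the colon is expected to keep it, and the deleted gene itself is not analysed here. A replicate is a pool, so the p-values measure the spread between pools of mice together with that of the laboratory steps. Quercetin was present for 24 hours only, and each group was seen at this time alone.

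Values are log2 signal, on which a difference of 1 is a 2-fold difference, and levels are never compared between genes because probe sets differ in brightness. Array medians ran from 5.90 to 5.98, lower quartiles from 4.66 to 4.78 and upper quartiles from 7.27 to 7.34. Genes of absorptive colonocytes (17 measured) and goblet cells (12 measured) averaged 11.03 to 11.18 and 11.80 to 11.97 in the 4 groups. Some arrays stood apart in markers of other tissues. The mean of 14 smooth muscle genes was 9.45 in wild type quercetin array 3, between 6.16 and 6.35 in wild type controls and between 6.40 and 7.78 elsewhere. The mean of 13 pancreatic acinar genes was 8.70 in wild type control array 1 and 9.54 in POR-null quercetin array 2, and between 5.82 and 7.14 on the other arrays. Results are therefore also given without these 3 arrays. In RNA from whole scrapings, fewer crypt base cells and less RNA per cell cannot be told apart.

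The upstream sequences of Axin2, the feedback gene of the pathway, and Ascl2, the stem cell factor, show the DNA just before the start of these genes. Sites of the pathway's factors were looked for there. They are the 250 bases before the start site in RefSeq, build GRCm38.p6, in the direction of the gene. Axin2 lies on the plus strand of chromosome 11 (chr11:108920099-108920348) and Ascl2 on the minus strand of chromosome 7 (chr7:142969265-142969514).
Axin2: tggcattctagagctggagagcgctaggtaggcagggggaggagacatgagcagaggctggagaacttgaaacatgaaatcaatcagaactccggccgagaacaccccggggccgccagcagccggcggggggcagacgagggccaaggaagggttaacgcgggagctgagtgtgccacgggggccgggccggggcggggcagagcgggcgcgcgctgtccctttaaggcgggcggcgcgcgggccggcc
Ascl2: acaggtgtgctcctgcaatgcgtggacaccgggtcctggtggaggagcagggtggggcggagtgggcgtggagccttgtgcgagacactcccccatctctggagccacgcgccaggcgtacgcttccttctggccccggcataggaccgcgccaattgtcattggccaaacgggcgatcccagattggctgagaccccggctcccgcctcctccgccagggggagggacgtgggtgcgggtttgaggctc
Both stretches are rich in G and C, 69.2% in Axin2 and 67.6% in Ascl2, where the median of all RefSeq promoters in the table was 52.4%. Those of Ephb3 and Cd44 held 65.6% and 56.4%. The letters CTTTGAA or their variant CTTTGAT, and likewise CTTTGTA or their variant CTTTGTT, all of them known sites of TCF and LEF factors, were looked for on both strands of the 300 bases from 250 before to 50 after the start. They occurred in 0 of the windows of Axin2, Ascl2, Cd44 and Ephb3, and in 16.9% of all 32851 promoters of that length. No capitals are printed for this reason, and the absence says only that these letters are not in this window.

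Among the receptors of the crypt, Lgr5 stood at 6.20, 6.12 and 6.25 in the 3 arrays of wild type controls. It stood at 6.28, 5.80 and 6.10 in wild type mice on quercetin. In POR-null mice it stood at 5.85, 6.11 and 5.94 on control diet and at 5.92, 6.26 and 6.04 on quercetin. The wild type controls lay close together and above every POR-null control, whereas each quercetin group spanned most of the range of the 12 arrays. Ephb3 was at 7.40, 6.91 and 7.13 in wild type controls and at 7.19, 7.01 and 7.03 in wild type mice on quercetin. The POR-null arrays gave 7.09, 6.90 and 7.23 on control diet and 6.91, 7.10 and 7.14 on quercetin. All 4 groups of Ephb3 overlapped, and its group means lay within 0.10 of each other.

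Cd44, the hyaluronan receptor, varied most of the 7 genes. Its signal was 6.59, 7.82 and 7.43 in wild type controls and 7.09, 6.66 and 6.50 in wild type mice on quercetin. It was 7.25, 6.96 and 6.11 in POR-null controls and 6.47, 6.95 and 6.54 in POR-null mice on quercetin. Its 12 arrays spanned 1.71 log2 units, against 0.42 to 0.75 for the other 6 genes, and its pooled SD within groups was 0.48. Both wild type control arrays 2 and 3 lay above all other arrays, while wild type control array 1 lay below the mean of each other group.

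For the feedback gene Axin2 the signal was 7.44, 7.36 and 6.95 in wild type controls and 7.53, 6.79 and 6.91 in wild type mice on quercetin. In POR-null mice it was 7.15, 6.99 and 7.02 on control diet and 7.19, 7.26 and 7.15 on quercetin. The POR-null arrays were tightly grouped, with an SD of 0.09 and 0.06, and lay inside the wider spread of the wild type arrays, with an SD of 0.26 and 0.40.

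Of the transcription factors, Ascl2 stood at 6.66, 6.37 and 6.46 in wild type controls and at 6.64, 6.35 and 6.41 in wild type mice on quercetin. POR-null mice had 6.24, 6.32 and 6.43 on control diet and 6.36, 6.36 and 6.46 on quercetin. Only 0.42 log2 units separated its highest from its lowest array, and all groups overlapped. Sox9 stood at 6.11, 6.23 and 6.20 in wild type controls and at 6.37, 5.70 and 5.62 in wild type mice on quercetin. It stood at 5.99, 6.01 and 5.85 in POR-null controls and at 5.83, 6.05 and 5.79 in POR-null mice on quercetin. The wild type quercetin group held both the highest and the lowest Sox9 arrays of all 12, and the wild type controls lay above all 6 POR-null arrays. Myc stood at 5.83, 5.76 and 5.73 in wild type controls, at 6.13, 6.10 and 5.68 in wild type mice on quercetin, at 6.13, 5.72 and 5.69 in POR-null controls and at 5.91, 5.77 and 5.96 in POR-null mice on quercetin. Wild type controls had the lowest mean of Myc, and all 4 groups overlapped.

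**Figure D1:**
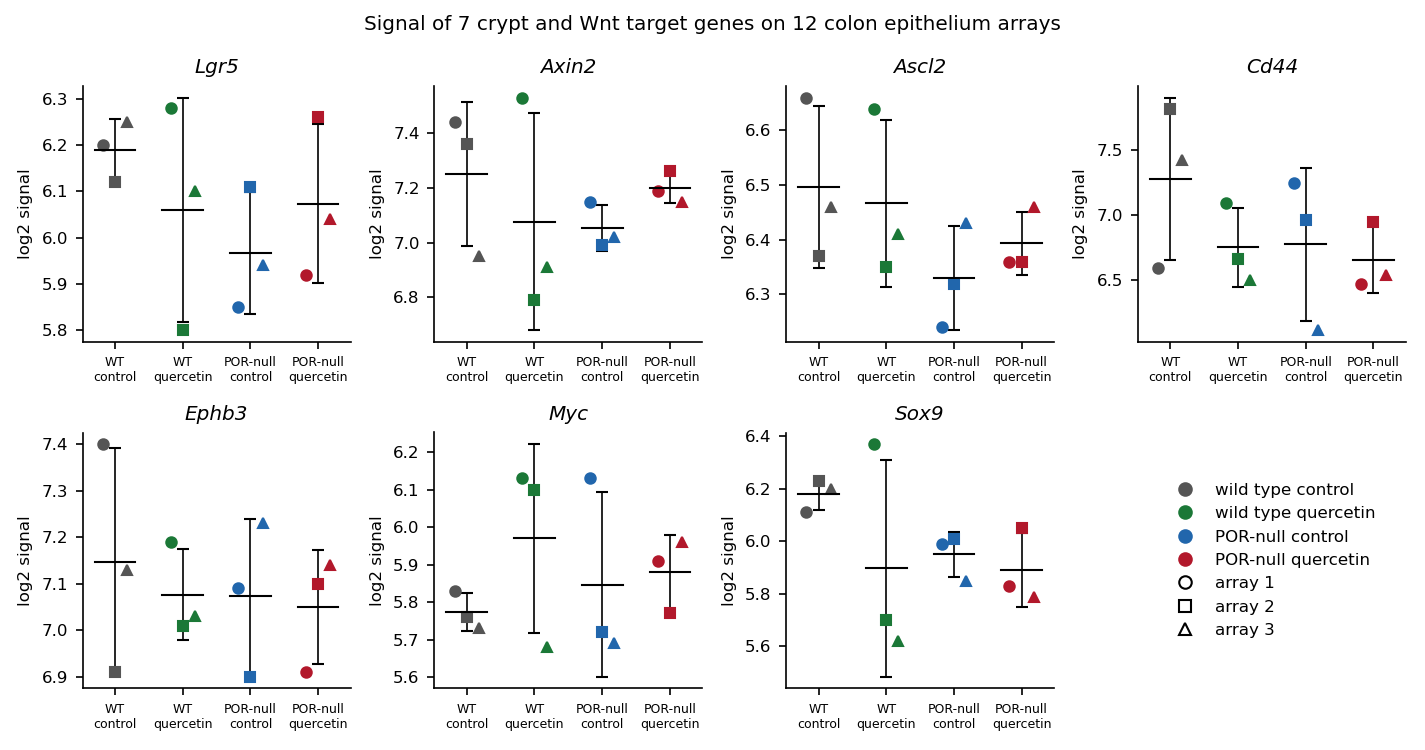
Log2 signal of Lgr5, Axin2, Ascl2, Cd44, Ephb3, Myc and Sox9 (y axis) on each array of the 4 groups (x axis); horizontal lines are group means, bars are 1 SD over 3 arrays, and the shape of a point is the array number. Wild type controls had the highest mean for 6 of the 7 genes, and array 1 of the wild type quercetin group, drawn as a green circle, was the highest of its group for all 7. Neither was counted over all genes of the arrays.

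Ordered by group mean, wild type controls came first for 6 of the 7 genes, Myc being the exception, and POR-null controls and POR-null mice on quercetin came last for 3 each. How often wild type controls came first among all genes was not counted, so whether this order is unusual is not known. For Lgr5 the order from high to low was wild type control at 6.19 (SD 0.07), POR-null quercetin at 6.07 (SD 0.17), wild type quercetin at 6.06 (SD 0.24) and POR-null control at 5.97 (SD 0.13). The means of Sox9 were 6.18 (SD 0.06) in wild type controls, 5.95 (SD 0.09) in POR-null controls, 5.90 (SD 0.41) in wild type mice on quercetin and 5.89 (SD 0.14) in POR-null mice on quercetin. Those of Cd44 were 7.28 (SD 0.63), 6.77 (SD 0.59), 6.75 (SD 0.31) and 6.65 (SD 0.26) in the same order of groups as for Sox9. For Axin2 the means were 7.25 (SD 0.26) in wild type controls, 7.20 (SD 0.06) in POR-null mice on quercetin, 7.08 (SD 0.40) in wild type mice on quercetin and 7.05 (SD 0.09) in POR-null controls. No pair of neighbours in the orders of Lgr5, Axin2 and Cd44 was parted by more than the larger of its SDs. In Sox9 the first step, from wild type to POR-null controls, was larger than the SD of either group, and the groups did not overlap.

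A further 5 probe sets measured Axin2, Ascl2, Cd44 and Sox9 again and gave another reading of the same genes. Over the 12 arrays the pair of Sox9 probe sets had a correlation of 0.76, as had the pair of Cd44, while the pair of Axin2 had one of 0.24. These correlations describe the same 12 RNA pools. The dimmer Sox9 probe set stood at 6.00, 5.70 and 5.90 in wild type controls, at 5.97, 5.31 and 5.07 in wild type mice on quercetin, at 5.73, 5.62 and 5.61 in POR-null controls and at 5.89, 5.79 and 5.69 in POR-null mice on quercetin. It thus repeated the split of the wild type quercetin arrays, with array 1 among the wild type controls and arrays 2 and 3 below all others.

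The dimmer Cd44 probe set stood at 4.80, 5.07 and 5.04 in wild type controls, at 5.25, 4.61 and 4.49 in wild type mice on quercetin, at 4.60, 4.72 and 4.35 in POR-null controls and at 4.33, 4.63 and 4.48 in POR-null mice on quercetin. All 3 wild type controls lay above all 6 POR-null arrays. The dimmer Axin2 probe set stood at 5.08, 5.09 and 5.21 in wild type controls, at 5.11, 5.04 and 5.0 in wild type mice on quercetin, at 4.89, 4.69 and 5.08 in POR-null controls and at 5.02, 5.11 and 5.20 in POR-null mice on quercetin. Its lowest arrays were both POR-null controls. The other Ascl2 probe sets lay between 3.34 and 3.90 and between 3.36 and 3.85. These values are below the lower quartile of every array, and their correlations with the brighter Ascl2 probe set were 0.68 and -0.34. Over the 7 comparisons a further probe set had the sign of the brighter one in 7 for Cd44, 6 for Axin2, 4 for Sox9, and 5 and 3 for Ascl2.

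**Figure D2:**
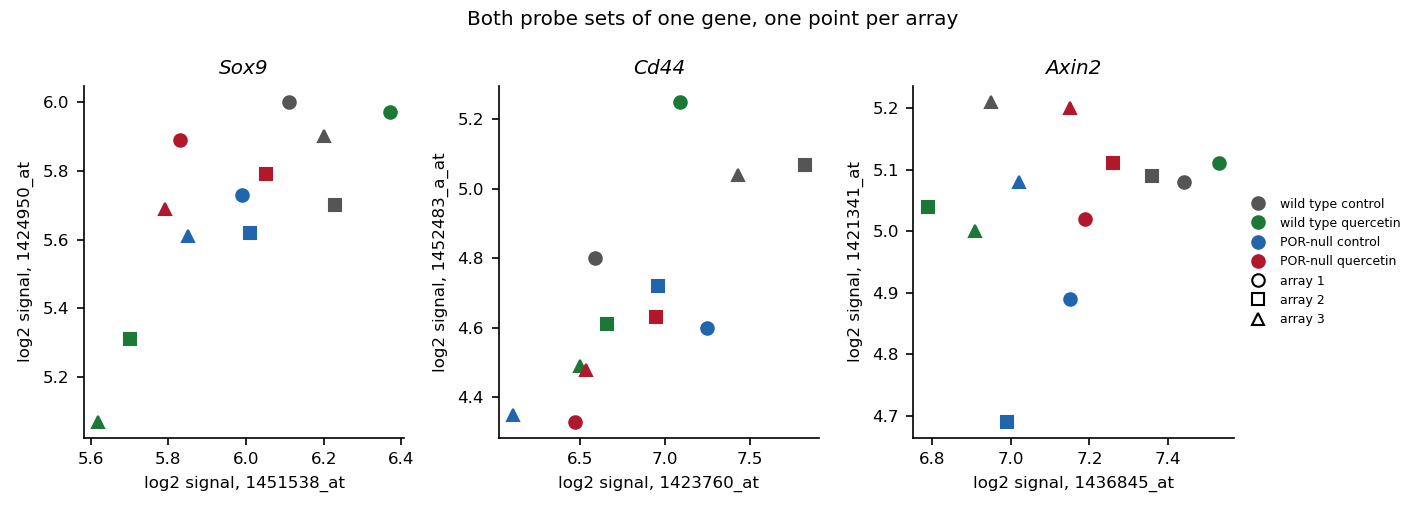
Log2 signal of the brighter probe set (x axis) against the dimmer probe set of the same gene (y axis) for Sox9, Cd44 and Axin2, with 1 point for each of 12 arrays, colours for groups and shapes for array numbers. The points follow a common rise for Sox9 and Cd44 (correlation 0.76 each) and scatter for Axin2 (0.24).

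The first comparison asked what quercetin did in wild type mice. The stem cell genes and Wnt targets were slightly lower with quercetin in 6 of 7 cases, with a median log2 difference of -0.13 where the median of all genes was 0.00333. Cd44 differed by -0.53 (SE 0.31), Sox9 by -0.28 (SE 0.16), Axin2 by -0.17 (SE 0.17), Lgr5 by -0.13 (SE 0.13), Ephb3 by -0.07 (SE 0.13) and Ascl2 by -0.03 (SE 0.11). Myc alone was higher, by 0.20 (SE 0.14). The 95% confidence intervals of all 7 held 0. By limma, with p adjusted by Benjamini and Hochberg over all probe sets, 0 of the 7 passed, and 0% of all probe sets did. The smallest p was that of Sox9 (95% confidence interval -0.63 to 0.07, adjusted p = 0.957, n = 3 arrays per group). At an unadjusted p under 0.05 there were 0 of the 7 brighter probe sets and 1 of all 12, the dimmer of Sox9 (-0.42, SE 0.18, adjusted p = 0.957), against 5.15% of all probe sets. The groups overlapped for all 12 probe sets, where 9.31% of all probe sets did not overlap.

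**Figure D3:**
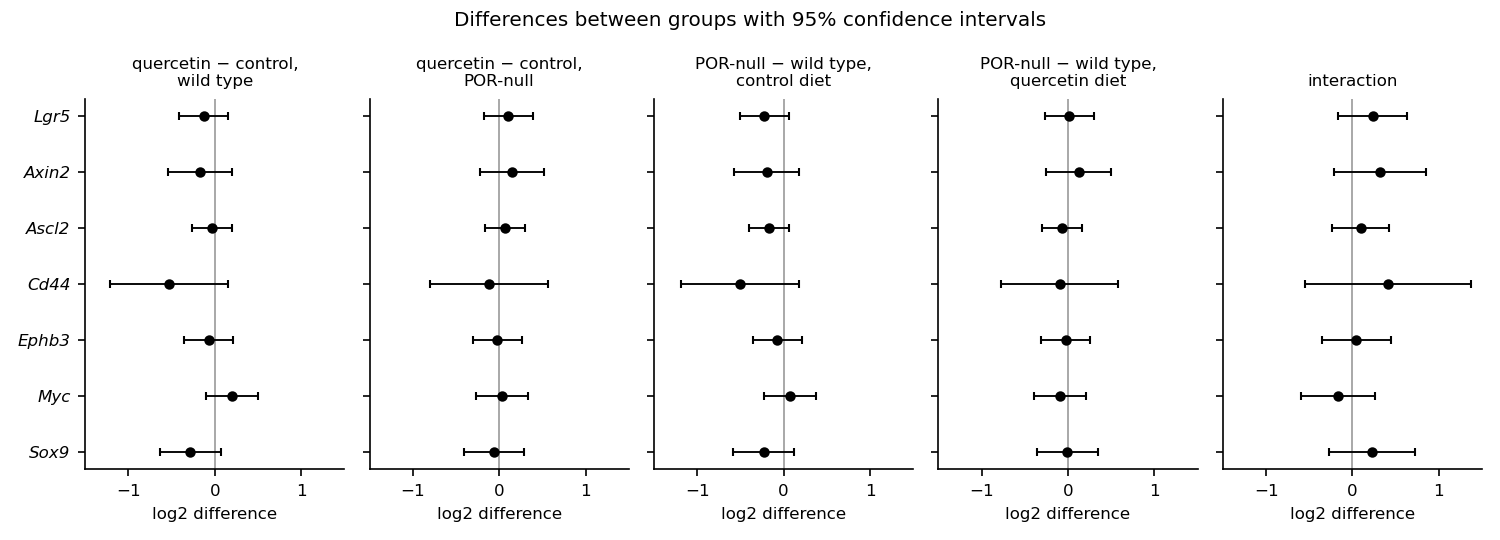
Differences in log2 signal (x axis) for the 7 genes (rows) in the 4 comparisons between groups and in the interaction (panels); points are limma estimates and bars 95% confidence intervals, n = 3 arrays per group. Every interval holds 0, and those of Cd44 are the widest.

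The 3 pools of wild type mice on quercetin did not behave alike. Array 1 was the highest of its group for 7 of 7 genes, and its median deviation from the 12-array means was 0.23, against -0.20 in array 2 and -0.19 in array 3. How often it was the highest over all probe sets was not counted. Several lists described below shared this trait in their means. Array 1 stood at 7.24 for other crypt base and stem genes, against 7.03 in arrays 2 and 3. For Myc partners and targets it stood at 7.83, against 7.69 and 7.66, and for BMP pathway genes at 6.51, against 6.31 and 6.33. Wnt ligands (5.17, 5.12 and 5.25) and secreted inhibitors (4.97, 4.98 and 5.09) were highest in array 3. Without array 1, Sox9 differed by -0.52 (SE 0.11, adjusted p = 0.257) in its brighter and by -0.68 (SE 0.12, adjusted p = 0.249) in its dimmer probe set. Axin2 differed by -0.40 (SE 0.14, adjusted p = 0.496), Cd44 by -0.70 (SE 0.35) and Lgr5 by -0.24 (SE 0.13). Ascl2 differed by -0.12, Ephb3 by -0.13 and Myc by 0.12. With array 1 left out 2 of 7 genes and 5 of 12 probe sets had an unadjusted p under 0.05, beside 7.39% of all probe sets. Array 1 is singled out here as the highest for these same genes, so leaving it out lowers them by selection. The share of all probe sets is therefore no measure for these counts. Leaving out array 2 moved Sox9, Axin2 and Lgr5 towards 0. Then 4 of 7 genes were lower, with a median of -0.03, and Sox9 differed by -0.19 (SE 0.18), Axin2 by -0.03 (SE 0.18) and Lgr5 by 0.00. The sizes for Sox9, Axin2 and Lgr5 thus moved with single pools in both directions, and none passed the adjusted threshold with or without them.

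Markers of some other cells ran in the direction opposite to the 7 genes, which were highest in array 1. Those of smooth muscle, T and NK cells and B and plasma cells were lower in array 1 than in arrays 2 and 3. Markers of fibroblasts and endothelium were lowest in array 2. Smooth muscle genes averaged 6.49 in wild type quercetin array 1, 7.71 in array 2 and 9.45 in array 3, against 6.16 to 6.35 in wild type controls. All 14 measured genes of that list were higher with quercetin, 11 of them at an unadjusted p under 0.05 and 0 after adjustment, with a median difference of 1.62. T and NK cell genes (21 measured) averaged 5.71, 6.03 and 6.06 in arrays 1, 2 and 3, against 5.64 to 5.84 in wild type controls, and B and plasma cell genes (16 measured) averaged 6.59, 7.22 and 6.94 against 6.15 to 6.88. Fibroblast and matrix genes (20 measured) averaged 6.98, 6.70 and 7.44 against 5.83 to 6.91, with 19 higher with quercetin and 11 at an unadjusted p under 0.05. Endothelial genes (14 measured) averaged 5.52, 5.44 and 5.60 against 5.22 to 5.53. Small intestine genes (15 measured) averaged 6.61, 8.05 and 7.62 against 7.16 to 8.48. Macrophage and dendritic cell genes and tuft cell genes were also lower in array 1 than in arrays 2 and 3. Goblet cell genes were highest in array 1, at 11.91, 11.86 and 11.79, and so were enteroendocrine genes, at 6.69, 6.46 and 6.68. None of the smooth muscle genes was below the lower quartile on all arrays. Proliferation genes (29 measured), which mark dividing crypt cells, were at 6.56, 6.41 and 6.49, inside the 6.39 to 6.56 of wild type controls. The part of these cells in the values of Sox9, Axin2 and the other genes was not tested.

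Without array 3, the one with the most smooth muscle signal, 6 of 7 genes were again lower, with a median of -0.09, and Sox9 differed by -0.15 (SE 0.17). Myc then differed by 0.34 (SE 0.13, adjusted p = 0.997). Without wild type control array 1, which carried acinar signal, 4 of 7 were lower, with a median of -0.08, and Cd44 differed by -0.88 (SE 0.29, adjusted p = 0.353). Ascl2 and Ephb3 then turned to 0.05 and 0.06.

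**Figure D4:**
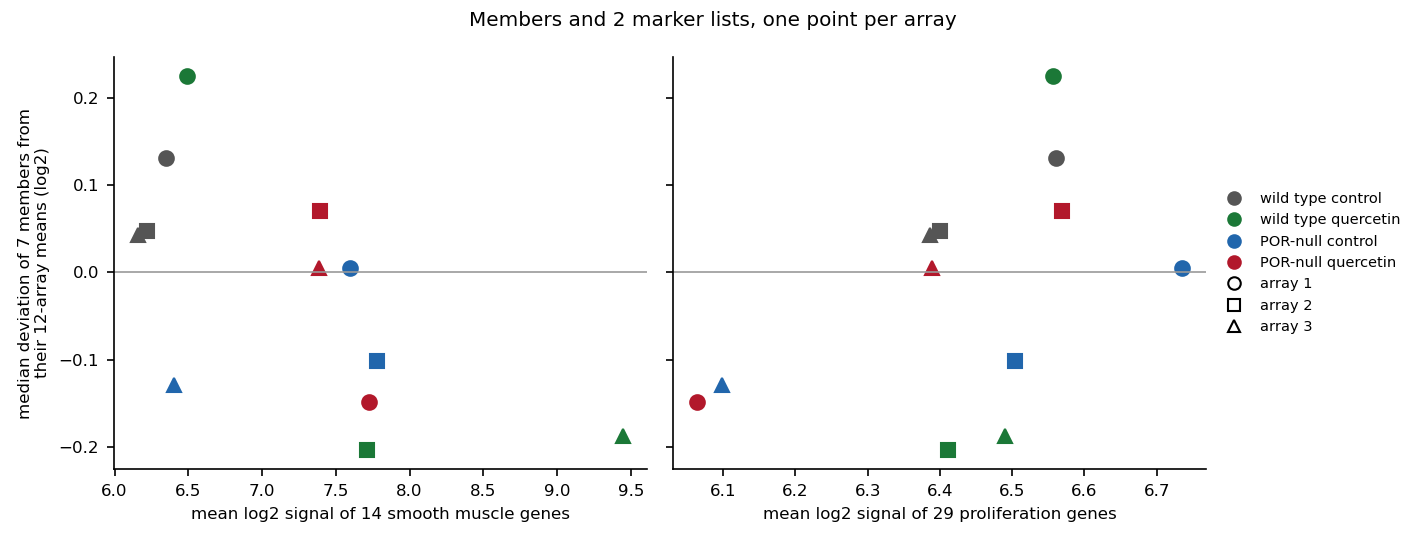
Median deviation of the 7 genes from their 12-array means (y axis, log2) against the mean log2 signal of 14 smooth muscle genes (left x axis) and of 29 proliferation genes (right x axis), with 1 point per array. Wild type quercetin array 1 lies highest, at 0.23, with a smooth muscle mean of 6.49, while arrays 2 and 3 of that group lie lowest with means of 7.71 and 9.45.

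In POR-null mice, quercetin was compared with control diet in the same way. The 7 genes differed by -0.12 to 0.15, 4 higher and 3 lower, with a median of 0.03 where that of all genes was 0.00667. Axin2 had the smallest p, at a difference of 0.15 (SE 0.17, 95% confidence interval -0.23 to 0.52, adjusted p = 1.00 by limma, n = 3 arrays per group). Its dimmer probe set differed by 0.22 (SE 0.10, adjusted p = 1.00), the only one of the 12 probe sets at an unadjusted p under 0.05. Of all probe sets 0% passed after adjustment, 2.82% had such a p before it, and 6.75% had groups that did not overlap, as did 0 of the 12. Without POR-null quercetin array 2, which carried acinar signal, 4 genes were higher and 3 lower, with a median of 0.01. The sign of 3 of the 7 differences turned when 1 array or another was left out.

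POR-null mice were next compared with wild type mice on the control diet. All of the genes but Myc were lower in POR-null mice, with a median difference of -0.20 where that of all genes was -0.00667. Lgr5 differed by -0.22 (SE 0.13, 95% confidence interval -0.51 to 0.06, adjusted p = 0.781 by limma, n = 3 arrays per group). Sox9 differed by -0.23 (SE 0.16, 95% confidence interval -0.58 to 0.12, adjusted p = 0.807). For both, the 3 POR-null arrays lay below the 3 wild type arrays without overlap. Cd44 differed by -0.51 (SE 0.31), Axin2 by -0.20 (SE 0.17), Ascl2 by -0.17 (SE 0.11) and Ephb3 by -0.07 (SE 0.13), with Myc at 0.07 (SE 0.14), and these groups overlapped.

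Among the dimmer probe sets, that of Cd44 differed by -0.41 (SE 0.17, 95% confidence interval -0.79 to -0.04, adjusted p = 0.734) without overlap, and that of Axin2 by -0.24 (SE 0.10, adjusted p = 0.734). That of Sox9 differed by -0.21 (SE 0.18) and those of Ascl2 by -0.11 and 0.00. In all, 4 of 12 probe sets did not overlap, all 4 lower in POR-null mice, where 9.67% of all probe sets did not overlap in either direction. The 4 were those of Lgr5, the brighter of Sox9, the dimmer of Cd44 and the dimmer Ascl2 probe set at -0.11. The nearest arrays of the 2 groups stood at 6.12 and 6.11 for Lgr5. For that Ascl2 probe set, which lay below the lower quartile of every array, they stood at 3.61 and 3.57. At an unadjusted p under 0.05 there were 0 of the 7 brighter and 2 of all 12 probe sets, beside 6.79% of all, and after adjustment 0 of 12 beside 0%. These probe sets share 6 arrays and partly a gene, so they are not independent of each other.

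Single pools moved Cd44 in this comparison. It differed by -0.85 without wild type control array 1 (adjusted p = 0.320) and by -0.75 without POR-null control array 1 (adjusted p = 0.932). It differed by -0.24 without wild type control array 2 and by -0.18 without POR-null control array 3. Lgr5 ran from -0.30 to -0.17 over the 6 arrays left out in turn, and Sox9 lay between -0.27 and -0.18. Without wild type control array 1, 5 of 7 genes were lower, with a median of -0.10. Smooth muscle genes averaged 7.59, 7.78 and 6.40 in POR-null controls against 6.16 to 6.35 in wild type controls, all 14 higher in POR-null mice with a median of 1.04 and 2 at an unadjusted p under 0.05. Of the fibroblast and matrix genes 18 of 20 were higher in POR-null controls, with a median of 0.54 and 4 at such a p, and 16 of 20 macrophage and dendritic cell genes were, with a median of 0.22 and 4. Endothelial genes were higher in 13 of 14 cases, with a median of 0.18 and 2 at such a p, and B and plasma cell genes in 13 of 16, with a median of 0.34 and 1. Proliferation genes averaged 6.74, 6.50 and 6.10 against 6.56, 6.40 and 6.39. The part of other cell types in the values of Lgr5, Sox9 and Cd44 was not tested.

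On the quercetin diet the genotypes were compared with the same set of genes. The differences ran from -0.10 to 0.12, 2 higher and 5 lower in POR-null mice, with a median of -0.03. Axin2 differed by 0.12 (SE 0.17, 95% confidence interval -0.25 to 0.50, adjusted p = 0.998 by limma, n = 3 arrays per group), and Lgr5 by 0.01 (SE 0.13). The dimmer probe sets of Sox9 and Cd44 stood at 0.34 (SE 0.18) and -0.30 (SE 0.17). None of the 12 had an unadjusted p under 0.05 beside 2.39% of all probe sets, none lacked overlap beside 6.82%, and 0% of all passed after adjustment. With single arrays left out in turn, 6 of the 7 differences changed sign with at least 1 of them. Leaving out array 3 of wild type mice on quercetin gave a median of -0.10, with 5 of 7 lower, and leaving out POR-null quercetin array 2 gave one of -0.06, with 6 lower. The direction turned when array 1 of wild type mice on quercetin was left out. Then 1 of 7 genes was lower, with a median of 0.07, and 1 of 7 genes and 3 of 12 probe sets had an unadjusted p under 0.05, beside 3.38% of all. These were Axin2 at 0.35 (SE 0.14), the dimmer Sox9 probe set at 0.60 (SE 0.12) and a dimmer one of Ascl2 at 0.27 (SE 0.08), each with an adjusted p of 0.999. Array 1 was the highest of its group for all 7 genes, so leaving it out raises these differences by selection. The counts cannot be read against the share of all probe sets. Without array 2 of that group all 7 were lower, with a median of -0.10.

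The interaction asked whether the response to quercetin differed between genotypes. It is the difference in POR-null mice minus that in wild type mice. It was above 0 for 6 of 7 genes, at 0.41 (SE 0.45) for Cd44, 0.32 (SE 0.24) for Axin2, 0.24 (SE 0.18) for Lgr5, 0.22 (SE 0.23) for Sox9, 0.09 (SE 0.15) for Ascl2 and 0.05 (SE 0.18) for Ephb3, and -0.16 (SE 0.20) for Myc. The median was 0.22 where that of all genes was 0.00333. Axin2 had the smallest p (95% confidence interval -0.21 to 0.85, adjusted p = 0.998 by limma), and 0% of all probe sets passed. The dimmer probe set of Sox9 had 0.55 (SE 0.25, adjusted p = 0.998), the only one of 12 at an unadjusted p under 0.05 beside 4.74% of all. A difference in response was therefore not shown for any of these genes, while the intervals leave room for one of up to 0.85 in Axin2 and 1.37 in Cd44. The interaction had a median of 0.23 when wild type control array 1 was left out, of 0.09 when array 3 of wild type mice on quercetin was, and of 0.14 when POR-null quercetin array 2 was. With array 1 of wild type mice on quercetin left out, the median was 0.35, and 2 of 7 genes and 4 of 12 probe sets had an unadjusted p under 0.05, beside 6.02% of all. These were both Sox9 probe sets, at 0.46 (SE 0.15) and 0.81 (SE 0.16), Axin2 at 0.55 (SE 0.18) and a dimmer probe set of Ascl2 at 0.38 (SE 0.11), with a smallest adjusted p of 0.596. As this array was the highest of its group for all 7 genes, leaving it out raises their interaction by selection. These counts, too, cannot be read against the share of all probe sets. Without array 2 of the same group the median was 0.11, and without POR-null control array 3 the value of Cd44 was 0.08.

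Averaged over both genotypes, quercetin differed from control diet by -0.33 to 0.12 for the 7 genes, 2 higher and 5 lower. Sox9 had the smallest p (-0.17, SE 0.11, 95% confidence interval -0.42 to 0.08, adjusted p = 0.998 by limma), and 0 of 12 probe sets had an unadjusted p under 0.05 beside 3.25% of all. With single arrays left out, 4 of the 7 values changed sign with at least 1 of them. Without wild type control array 1, 3 of 7 were lower, with a median of 0.02. Without wild type quercetin array 3, 4 were lower (median -0.02), and without POR-null quercetin array 2, 5 were (median -0.06). Averaged over both diets, POR-null mice were lower for 7 of 7 genes, with differences from -0.30 to -0.01 and a median of -0.11, where that of all genes was -0.00500. Ascl2 had the smallest p (-0.12, SE 0.08, 95% confidence interval -0.28 to 0.04, adjusted p = 0.998). The dimmer probe set of Cd44 differed by -0.36 (SE 0.12, adjusted p = 0.998), and it was the only one of 12 at an unadjusted p under 0.05 beside 4.18% of all. The common direction did not hold in each setting, since 4 of the 7 values changed sign or, for Sox9, came to 0 with at least 1 array left out. Without array 1 of wild type mice on quercetin 4 of 7 were lower, with a median of -0.02, and without wild type control array 1 also 4, with a median of -0.08. Without array 3 of wild type mice on quercetin 7 were lower (median -0.095), and without POR-null quercetin array 2, 6 were (median -0.11). After adjustment 0% of all probe sets passed in either average. These comparisons use the same arrays as the 4 above and add no further mice.

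Across the 12 arrays the genes were weakly alike. The 21 pairs among the 7 genes had correlations from -0.37 to 0.73 with a median of 0.30, and 18 (85.7%) were above 0, where pairs of all genes with a mean of at least 6 had a median of 0.00851 and 50.9% above 0. Myc and Sox9, with means of 5.87 and 5.98, are themselves outside that background. Axin2 with Sox9 stood at 0.70, Lgr5 with Sox9 at 0.67, Lgr5 with Ascl2 at 0.59 and Lgr5 with Myc at -0.37. Of 7154 other genes with a mean of at least 6, those whose values followed Lgr5 most closely were Tnfrsf11a (0.93), Rtkn (0.92), Mtx1 (0.88), Tmem79 (0.88) and Hes1 (0.87), a transcription factor downstream of Notch. Ascl2 was followed by Fancl (0.89), Tmppe (0.87), Orc2 (0.86), Tmem106c (0.86) and Krt83 (0.86), and Axin2 by Tmem63b (0.85), Acy3 (0.82), Gatad2a (0.82), Mri1 (0.82) and Yrdc (0.81). All of these are descriptions over 12 arrays that share groups and normalization, and the highest of so many correlations is large by selection.

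The other genes of the pathway were read from lists by role, and none of their genes passed the adjusted threshold in any of the 7 comparisons. Of the 19 Wnt ligands, 13 were higher and 5 lower with quercetin in wild type mice (median 0.04), and 6 of the 19 were below the lower quartile on every array. Wnt9a differed by -0.26 (SE 0.11, adjusted p = 0.957 by limma), the only ligand at an unadjusted p under 0.05 in that comparison. In POR-null against wild type controls 7 ligands were higher and 12 lower (median -0.02).

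Of the 18 measured receptors and genes of the R-spondin axis, 8 were higher and 10 lower with quercetin in wild type mice, and 7 were higher and 11 lower in POR-null controls (median -0.06). Lgr6, a close relative of Lgr5, differed by 0.26 (SE 0.11, adjusted p = 1.00) with quercetin in POR-null mice, and the Frizzled receptor Fzd8 by -0.19 (SE 0.08, adjusted p = 0.998) between genotypes on quercetin. Each was the only receptor at an unadjusted p under 0.05 in its comparison.

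Of 22 genes that carry the signal from beta-catenin to DNA, 9 were higher and 13 lower both with quercetin in wild type mice (median -0.04) and in POR-null controls (median -0.03). The histone deacetylase Hdac1, a corepressor, differed by -0.39 (SE 0.15, adjusted p = 0.954) and Tle2, a Groucho corepressor, by 0.21 (SE 0.09, adjusted p = 0.957) with quercetin in wild type mice. The coactivator Crebbp differed by 0.29 (SE 0.10, adjusted p = 0.710) between genotypes on control diet. Of the 22 genes, these were the ones at an unadjusted p under 0.05 in those comparisons.

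Of 14 genes of the destruction complex, 5 were higher and 9 lower with quercetin in wild type mice (median -0.03). The phosphatase scaffold Ppp2r1a differed by -0.24 (SE 0.10, adjusted p = 0.957) in wild type and by -0.25 (SE 0.10, adjusted p = 1.00) in POR-null mice, and was the only gene of the complex at an unadjusted p under 0.05 in either. The kinase Gsk3b, which marks beta-catenin for destruction, differed by -0.26 (SE 0.11, adjusted p = 0.734) between genotypes on control diet. In the average over diets 3 of the 14 were lower in POR-null mice at an unadjusted p under 0.05 by limma, beside 4.18% of all probe sets. In the average over genotypes 2 were lower with quercetin at such a p, beside 3.25%.

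Of 18 secreted and feedback inhibitors, 9 were higher and 8 lower with quercetin in wild type mice (median 0.02), and 8 of the 18 were below the lower quartile on every array. Nkd2, an inhibitor that binds Dishevelled, differed by 0.27 (SE 0.10, adjusted p = 0.952) with quercetin in wild type mice, by 0.22 (SE 0.10, adjusted p = 0.734) between genotypes on control diet and by -0.40 (SE 0.14, adjusted p = 0.998) in the interaction. These 3 values share the wild type controls, and each had an unadjusted p under 0.05. Frzb, a secreted Wnt binder, differed by 0.23 (SE 0.10, adjusted p = 0.957) with quercetin in wild type mice.

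A further 23 Wnt target genes had a pattern of signs like that of the 7 genes, with 16 lower and 7 higher in wild type mice on quercetin (median -0.08) and 17 lower and 6 higher in POR-null controls (median -0.07). The signs in both comparisons rest on the same wild type controls. This lean was not particular to Wnt targets. Enteroendocrine genes had 11 lower and 3 higher (median -0.10), and 12 lower and 3 higher (median -0.16), in the same 2 comparisons. Absorptive colonocyte genes had 15 lower and 2 higher (median -0.15), and 10 lower and 7 higher (median -0.02). Goblet cell genes did not lean this way, with 6 lower and 6 higher, and 5 lower and 7 higher. Over the 7 comparisons 1 of the 23 reached an unadjusted p under 0.05 in 1 of them, Tgif1, a homeodomain repressor, in the average over diets (-0.35, SE 0.12, adjusted p = 0.998). It differed by -0.36 (SE 0.17, adjusted p = 0.734) in POR-null controls. The transcription factor Sp5, a direct target of the pathway, differed by -0.20 (SE 0.12, adjusted p = 0.957) in wild type mice on quercetin. Tnfrsf19, also called Troy and a marker of crypt base cells, stood at -0.17 (SE 0.12) with quercetin in wild type mice and at -0.23 (SE 0.12) in POR-null controls.

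A list of 21 further crypt base and stem cell genes was evenly split, with 9 higher and 12 lower with quercetin in wild type mice (median -0.02) and 10 higher and 10 lower in POR-null controls (median 0.00). Phlda1 differed by -0.70 (SE 0.28, adjusted p = 0.954) with quercetin in wild type mice. In POR-null controls Igfbp4, a binding protein of insulin-like growth factors, differed by 1.31 (SE 0.52, adjusted p = 0.719) and the water channel Aqp4 by 0.61 (SE 0.25, adjusted p = 0.724). Of 29 proliferation genes, 17 were higher and 10 lower with quercetin in wild type mice (median 0.03), and 4 were higher and 25 lower in POR-null against wild type mice on quercetin (median -0.15), none of them at an unadjusted p under 0.05. POR-null quercetin array 1 was the low one of this list, at a mean of 6.06 against 6.57 and 6.39 on the other POR-null quercetin arrays and 6.56, 6.41 and 6.49 in wild type mice on quercetin. Without it 13 were higher and 16 lower, with a median of -0.00667. Leaving out any other array of the groups compared kept 22 to 29 of the 29 genes lower. Without POR-null quercetin array 2, which carried acinar signal, 27 were lower, with a median of -0.30. These settings were added after the values were seen.

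**Figure D5:**
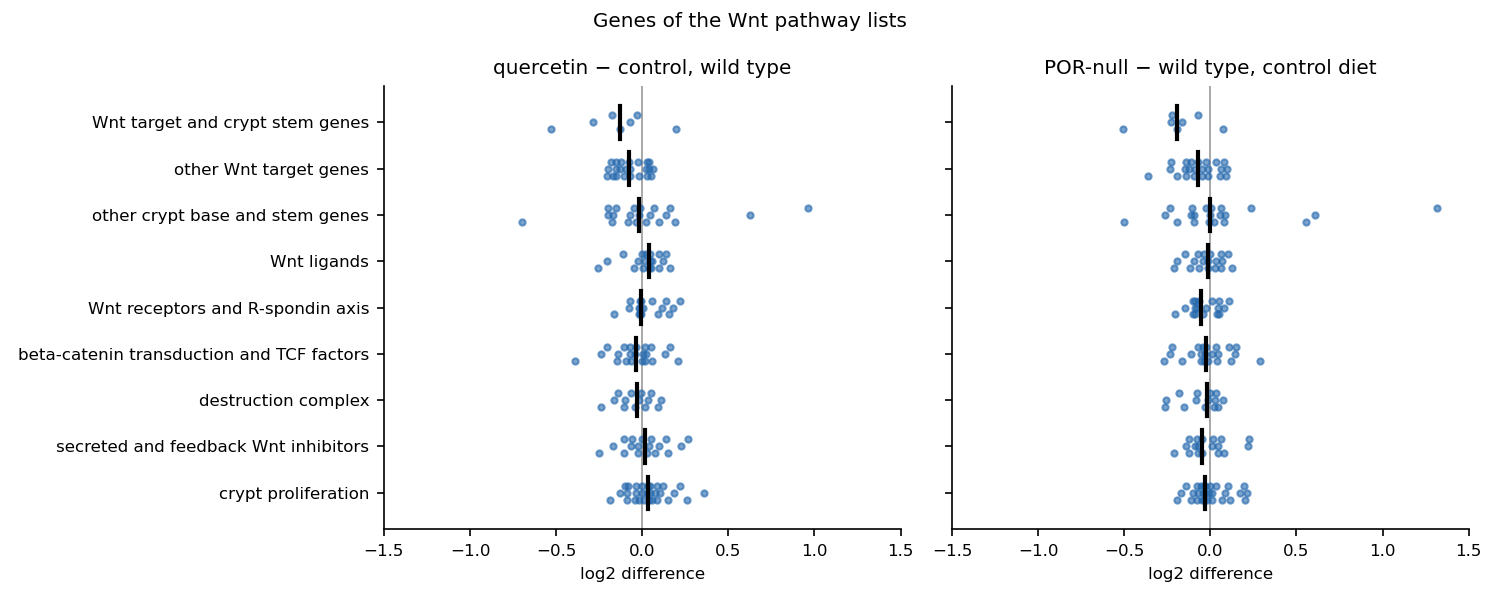
Log2 differences (x axis) of the 7 genes and of 8 lists of pathway and crypt genes (rows) for quercetin in wild type mice (left) and for POR-null against wild type mice on control diet (right); each point is a gene and each bar the median of its list. The medians of the 7 genes are -0.13 and -0.20, those of the other Wnt targets -0.08 and -0.07, and those of the remaining lists lie within 0.06 of 0.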

How the data were processed

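RNA of 12 colon epithelium pools was measured on Affymetrix 430A arrays. The deposited table holds 1 value per probe set and array, taken to be log2 signal made by the authors. MAS5 and RMA stand in the submitters' processing notes with no role, so which of them made the table is not stated, and neither background correction nor normalization was repeated. Affymetrix control probe sets (64 of 22690) were left out and no filter on signal was set. Names came from the array annotation, in which 20380 tested probe sets have 1 symbol, 691 several and 1555 none. A gene with several probe sets was represented by the one of the highest mean, with the others beside it.

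All 12 arrays entered 1 fit of 4 group means with limma 3.58.1 in R 4.3.3 (lmFit, contrasts.fit, eBayes with trend=TRUE), with 8 residual and 4.91 prior degrees of freedom. Two-sided p-values were adjusted with the Benjamini-Hochberg method over 22626 probe sets in each of 7 comparisons, with a threshold of 0.05. The fit was tested on simulated data. No pairing entered it. Genes are named as all members of the set, and in full detail where the brighter probe set had an unadjusted p under 0.05, no overlap or the smallest p of its comparison; up to 3 genes of smallest p are named per pathway list, and the 5 most correlated genes for Lgr5, Ascl2 and Axin2. The members and lists were chosen with earlier results of these data known. Tables were made with Python 3.11.15. Alternatives covered array weights, the variance trend, a robust prior, a replicate block, only the groups compared, quantile normalization, median centring, a mean of at least 6, the mean of a gene's probe sets and each array left out in turn. With 3 arrays per group, the number of arrays limits the precision, and an exact permutation test could not give a two-sided p below 0.10.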

Additional observations from a re-analysis of the deposited data

How the results depend on the processing

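No gene of the set passed the adjusted threshold under any setting tried. Over all probe sets, array weights gave 2 past the threshold for quercetin in wild type mice and 399 (256 higher) for POR-null against wild type mice on control diet, and the cause was not tested. Only the groups compared gave 1 for the genotypes on quercetin. With 1 array left out, the numbers ran from 0 to 3 for quercetin in wild type mice (3 without wild type quercetin array 1), 0 to 1 in POR-null mice (1 without POR-null quercetin array 1), 0 to 41 for the genotypes on control diet (41 without wild type control array 1), 0 to 1 for the genotypes on quercetin, the interaction and the quercetin average, and 0 to 2 for the genotype average. Small differences changed sign or came to 0 with 1 array left out: quercetin in wild type mice ran from -0.24 to 0.00 for Lgr5, -0.12 to 0.052 for Ascl2 and -0.19 to 0.057 for Ephb3; the genotypes on control diet from -0.19 to 0.053 for Ephb3 and -0.068 to 0.15 for Myc; the genotypes on quercetin from -0.02 to 0.35 for Axin2; and the interaction from -0.08 to 0.17 for Ephb3. Whether the array number pairs the pools is not given by the labels and was not settled here. The 18 pairs of the same number in different groups had correlations of deviations from -0.19 to 0.26 (6 above 0.1). Pairs of different numbers ran from -0.27 to 0.21. Of the 12 arrays, 8 correlated best with an array of their own number. With a replicate block 1 probe set passed for the genotypes on quercetin and 0 in the other comparisons. The settings other than single arrays left out kept the direction and call of all 7 genes for quercetin in wild type mice, the genotypes on control diet and the interaction, and of the gene of smallest p in the other comparisons, except that the filter on a mean of at least 6 left no value for Myc and Sox9.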

Other observations

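Gene groups that border on the crypt programme gave 0 genes past the adjusted threshold by limma in any of the 7 comparisons. Of 18 Notch and secretory fate genes, which steer crypt cells towards absorptive or secretory types, 16 were lower and 2 higher in POR-null controls than in wild type controls (median -0.08). Spdef, a transcription factor of goblet cell maturation, differed by -0.82 (SE 0.30, adjusted p = 0.718, n = 3 arrays per group) and Hes1, a Notch target, by -0.35 (SE 0.16, adjusted p = 0.734). Spdef also differed by -0.74 (SE 0.30, adjusted p = 0.957) with quercetin in wild type mice, a comparison that shares the wild type controls. Goblet cell genes as a group averaged 11.80 in wild type controls and 11.97 in POR-null controls.

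Of 21 genes of the BMP pathway, which opposes Wnt signals towards the luminal surface, 11 were higher and 9 lower in POR-null controls. Smad4, the shared mediator of BMP and TGF-beta signals, differed by 0.46 (SE 0.15, adjusted p = 0.710) there and by 0.37 (SE 0.15, adjusted p = 0.957) with quercetin in wild type mice. Among 16 Eph receptors and ephrins, the partners of Ephb3, Efnb2 differed by -0.29 (SE 0.12, adjusted p = 1.00) with quercetin in POR-null mice. Of 25 partners and targets of Myc, 16 were higher and 9 lower in POR-null controls, and Nme1, a nucleoside diphosphate kinase, differed by 0.29 (SE 0.11, adjusted p = 0.719) there and by -0.44 (SE 0.16, adjusted p = 0.998) in the interaction.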
